A study of Mus musculus with 12 samples.

Results

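The high-affinity IgE receptor, histamine synthesis and a small set of granule proteins mark mast cells, basophils and eosinophils, and 10 genes of this kind were followed through 3 sorted progenitor populations of mouse bone marrow. They are Fcer1a, Ms4a2, Il1rl1, Hdc, Cpa3, Mcpt8, Prss34, Gzmb, Prg2 and Epx, chosen by symbol and found by matching the Ensembl IDs of the deposited table to the GENCODE annotation of mm10. All 10 were found among 38924 gene IDs, and gene coordinates below are in mm10. The populations were LMPP (lymphoid-primed multipotent progenitors), CLP (common lymphoid progenitors) and GMP (granulocyte-monocyte progenitors), each with 4 bulk RNA-seq libraries, 2 in each of 2 batches named in the sample titles. Per the labels, the donors were female C57Bl/6J mice, and cells bearing TER-119, Gr-1, B220, CD11b or CD3e had been removed from the marrow. LMPP were gated as Sca1+ cKit+ CD150- CD34+ with high Flk2. CLP were low in cKit and Sca1 and positive for Flk2 and IL7Ra. GMP were Sca1- cKit+ CD150- cells with CD34 and the Fc gamma receptor. The sources used here do not give the genotype or age of the bulk donors, nor whether animals were pooled or libraries came from separate animals, so p-values reflect the spread between these libraries alone, which may be technical. In bulk RNA, fewer cells of a type and less RNA per cell cannot be told apart.

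Mast cells and basophils carry the IgE receptor, whose alpha chain binds the antibody and whose beta and gamma chains pass the signal on. When the receptor is cross-linked, the cells release histamine, made by the enzyme Hdc, together with proteases stored in granules. Eosinophils store other proteins, chiefly major basic protein and eosinophil peroxidase, and all of these cells arise in the marrow through progenitors of the granulocyte lineages. GATA factors, which bind the letters GATA with variable flanks, take part in the development of mast cells, basophils and eosinophils.

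Because of that role, promoters (250 bases before and 50 after the start, RefSeq, GRCm38.p6) were searched on both strands for the hexamer AGATAA and its 3 variants that begin with T, end with G or do both. RefSeq promoters were matched for 9 of the 10 genes (all but Prg2), Il1rl1 with 2 starts. The letters stood in 7 of these 10 promoters and in 6 of the 9 genes, beside 29.8% of the 32851 promoters in the table. Il1rl1 held 5 matches at one start and 1 at the other, Ms4a2 held 3, and Fcer1a, Hdc, Cpa3 and Prss34 held 1 each. Mcpt8, Gzmb and Epx held none in this window. C/EBP letters (TTGCNNAA) stood in 2 promoters, of Fcer1a and Il1rl1, beside 10.8% of all promoters. ETS letters (AGGAAG) stood in 1, of Hdc, beside 35.4%. E-box letters (CANNTG) stood in 9 of the 10 promoters and in 8 of the 9 genes, beside 72.3%. None of these matches shows a binding site, and no binding was measured.

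The promoters of Ms4a2, Cpa3 and Hdc are shown because these 3 genes separated GMP from the other types in every library, and that of Prss34, which did not, is shown beside them. Each reads 5′ to 3′ along the strand of its gene, with the GATA letters, or their reverse complement, in capitals. The Ms4a2 promoter lies at chr19:11623670-11623969 on the minus strand, with matches that begin 224, 37 and 11 bases before the start. The Cpa3 promoter lies at chr3:20242132-20242431 on the minus strand, with a match 46 bases before the start. The Hdc promoter lies at chr2:126618629-126618928 on the minus strand, with a match 221 bases before the start. This RefSeq start differs from the GENCODE start of Hdc at 126619299, so the window lies inside the GENCODE gene. The Prss34 promoter lies at chr17:25298144-25298443 on the plus strand, with a match 31 bases before the start.
Ms4a2: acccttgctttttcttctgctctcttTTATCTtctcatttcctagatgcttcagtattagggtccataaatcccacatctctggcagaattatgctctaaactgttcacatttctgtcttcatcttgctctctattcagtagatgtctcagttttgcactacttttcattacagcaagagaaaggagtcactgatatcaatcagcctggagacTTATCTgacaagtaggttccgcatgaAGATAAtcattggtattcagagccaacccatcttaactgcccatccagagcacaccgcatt
Cpa3: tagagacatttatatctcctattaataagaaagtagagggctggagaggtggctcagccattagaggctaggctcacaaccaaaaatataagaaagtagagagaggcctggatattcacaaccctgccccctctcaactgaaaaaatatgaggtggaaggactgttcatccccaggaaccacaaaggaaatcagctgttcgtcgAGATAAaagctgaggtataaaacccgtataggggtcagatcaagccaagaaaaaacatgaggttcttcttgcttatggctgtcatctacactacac
Hdc: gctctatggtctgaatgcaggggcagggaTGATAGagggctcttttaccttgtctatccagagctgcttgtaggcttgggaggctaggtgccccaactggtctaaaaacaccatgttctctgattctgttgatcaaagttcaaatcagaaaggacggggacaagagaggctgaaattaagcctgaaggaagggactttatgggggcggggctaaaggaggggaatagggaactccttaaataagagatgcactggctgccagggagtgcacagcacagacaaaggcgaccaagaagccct
Prss34: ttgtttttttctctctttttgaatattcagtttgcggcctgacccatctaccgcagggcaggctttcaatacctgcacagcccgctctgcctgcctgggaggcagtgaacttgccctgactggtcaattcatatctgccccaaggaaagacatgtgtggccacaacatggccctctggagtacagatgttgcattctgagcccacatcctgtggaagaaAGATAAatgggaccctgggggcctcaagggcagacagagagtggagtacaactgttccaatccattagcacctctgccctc

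Levels are given as TPM, a share of each library's transcripts corrected for transcript length, so different genes can be set side by side. Sequencing depth is unknown, because TPM carries no read totals. The number of genes at 1 TPM or more was 11956 to 12987 in LMPP, 11163 to 12144 in CLP and 11064 to 11342 in GMP. A pair of batch 2 libraries stood apart, LMPP replicate 1 and CLP replicate 1. Their 4 haemoglobin genes summed to 28085 and 13392 TPM, and their 12 mature neutrophil genes to 27116 and 12558 TPM. In the other 10 libraries these sums were 35.7 to 2439 TPM and 17.6 to 2021 TPM. Lineage depletion removes cells with the surface markers of both kinds. Results of the 10 genes that rest on this pair, and counts of other genes that it changes, are given with and without it, and the part of these cells' RNA in the results was not tested.

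Differences were tested with limma on log2(TPM + 1), with cell type and batch as terms, over the 12718 genes that reached 1 TPM in 4 or more libraries. A gene was called at a Benjamini-Hochberg adjusted p under 0.05 over all of these, in two-sided tests. Of the 10 genes, 9 passed the filter. Gzmb did not, with 1 TPM or more in 3 libraries. Ms4a2 and Il1rl1 reached 1 TPM in 2 and 3 libraries outside GMP, so both passed only through their GMP libraries.

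Mean levels were highest in GMP for 9 of the 10 genes, and Epx had its highest mean in LMPP. LMPP against GMP, 3 genes were called lower in LMPP (Hdc, Cpa3 and Ms4a2), 0 were called higher, and all 9 tested differences were negative. Over all genes 7.62% were called lower in LMPP and 21.3% higher. CLP against GMP, 5 genes were called lower in CLP (Hdc, Cpa3, Ms4a2, Prg2 and Mcpt8), 0 higher, and again all 9 differences were negative. Over all genes 9.96% were called lower in CLP and 13.9% higher. LMPP against CLP, limma called 0 genes in either direction, and 0 had an unadjusted p under 0.05, beside 10% of all genes called either way (7.23% higher and 2.8% lower in LMPP). Both counts of calls against GMP include Ms4a2, which passed the filter only through GMP. The 9 negative differences include Ms4a2 and Il1rl1, of which the same holds. These comparisons share libraries, so their values are not independent of each other. The median difference of all genes tested was 0.24 on the log2 scale for LMPP minus GMP, 0.17 for LMPP minus CLP and 0.09 for CLP minus GMP. After median-ratio scaling, which sets typical genes level, these medians were 0.00, 0.02 and -0.01, and the differences below became more negative against GMP.

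**Figure D1:**
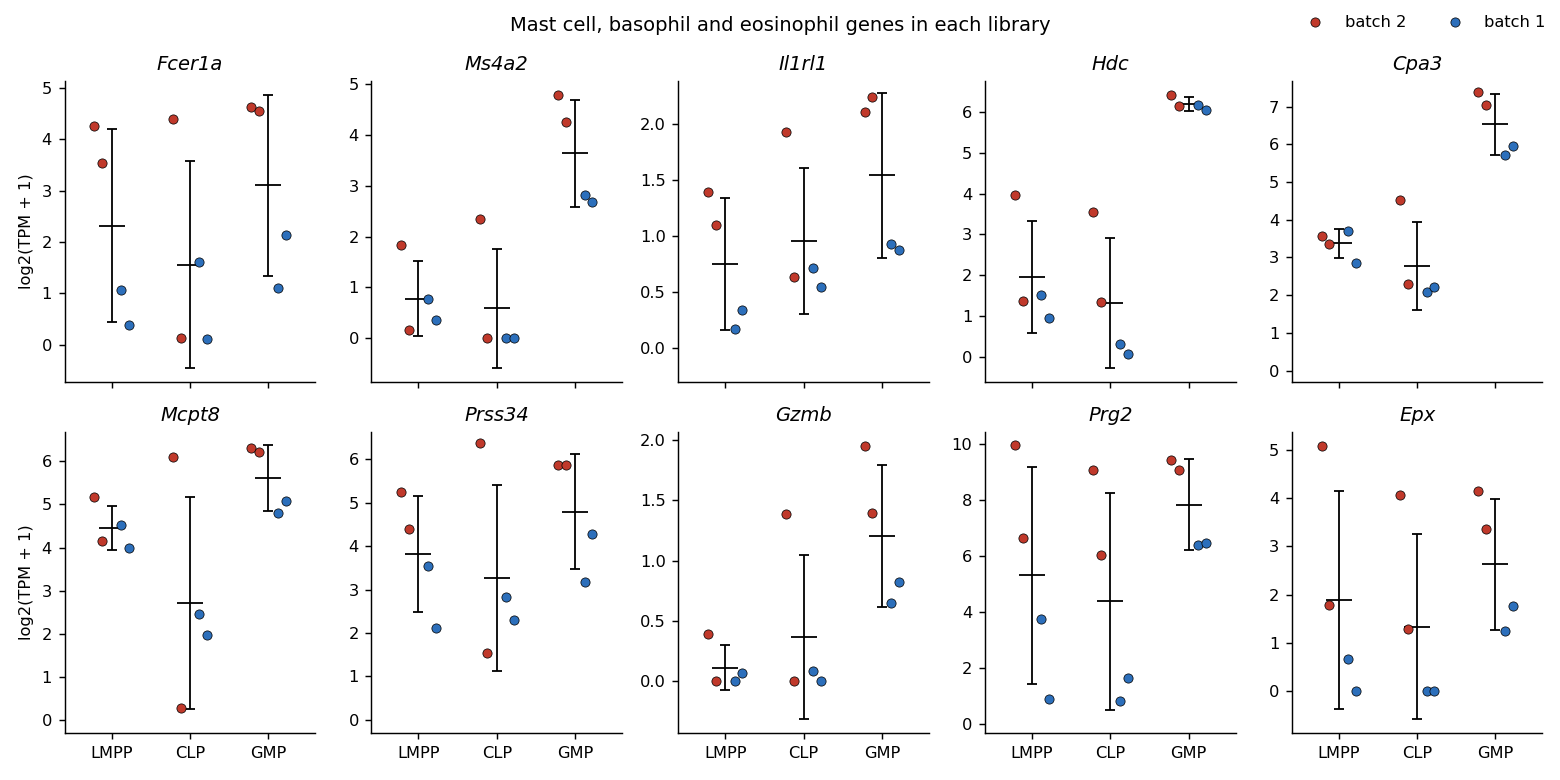
Level of each gene, log2(TPM + 1), in every library of LMPP, CLP and GMP; red points are batch 2, blue points batch 1, and bars give the mean ± SD of the 4 libraries of a type. Hdc, Cpa3 and Ms4a2 do not overlap between GMP and the other types, whereas Prg2 and Epx spread mainly by batch.

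**Figure D2:**
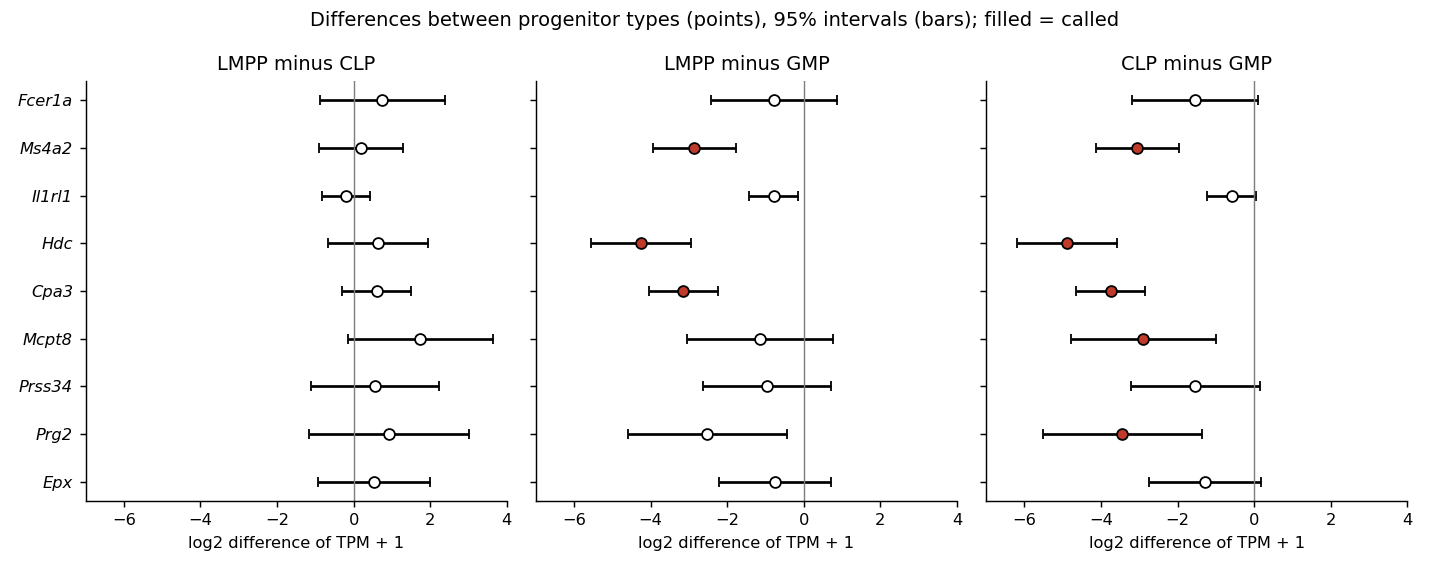
Log2 differences of TPM + 1 from limma for the 9 genes tested, LMPP minus CLP, LMPP minus GMP and CLP minus GMP, with 95% intervals; filled points were called at an adjusted p under 0.05. No interval clears 0 in LMPP minus CLP, while Hdc, Cpa3 and Ms4a2 lie below 0 against GMP in both panels.

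Among the receptors, Ms4a2, which encodes the beta chain of the IgE receptor (chromosome 19, 11615523 to 11623719, minus strand, up to 7 exons), had its highest mean in GMP. LMPP libraries had 2.55 and 0.12 TPM in batch 2 and 0.70 and 0.28 TPM in batch 1. Of the CLP libraries, batch 2 replicate 1 had 4.10 TPM and the other 3 listed the gene at 0. GMP libraries had 26.6 and 18.1 TPM in batch 2 and 6.08 and 5.37 TPM in batch 1. Every GMP library thus lay above every LMPP and CLP library. LMPP averaged 0.913 ± 1.12, CLP 1.02 ± 2.05 and GMP 14.0 ± 10.2 TPM (SD, n = 4 each). Ms4a2 fell by 2.86 ± 0.50 on the log2 scale in LMPP against GMP (± SE, limma adjusted p = 0.00153) and by 3.05 ± 0.50 in CLP against GMP (adjusted p = 0.00103). It passed the filter only through GMP, the type where it was high, so these tests are not separate support for that pattern. Within batch 2 alone the limma differences were -3.53 (adjusted p = 0.0664) and -3.35 (adjusted p = 0.0655), which did not pass.

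Fcer1a encodes the alpha chain that binds IgE (chromosome 1, 173221284 to 173227214, minus strand, up to 5 exons), and its pattern was another. LMPP libraries had 18.2 and 10.7 TPM in batch 2 and 1.10 and 0.30 TPM in batch 1. CLP libraries had 20.1 and 0.09 TPM in batch 2 and 2.05 and 0.08 TPM in batch 1. GMP libraries had 23.8 and 22.4 TPM in batch 2 and 1.14 and 3.39 TPM in batch 1. Batch 2 lay above batch 1 in LMPP and GMP without overlap, CLP batch 2 replicate 2 lay within the range of CLP batch 1, and the 3 types overlapped. LMPP averaged 7.56 ± 8.51, CLP 5.58 ± 9.73 and GMP 12.7 ± 12.1 TPM (SD, n = 4 each). The limma difference was -0.79 ± 0.75 for LMPP minus GMP (adjusted p = 0.459) and -1.54 ± 0.75 for CLP minus GMP (adjusted p = 0.162), neither of which passed. With only LMPP and GMP in the fit, the same -0.79 passed (limma adjusted p = 0.046). The alpha and beta chains of one receptor therefore had unlike profiles, with r = 0.678 over the 12 libraries.

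Il1rl1 encodes the receptor of interleukin 33 (chromosome 1, 40429570 to 40465415, plus strand, up to 11 exons) and was low throughout. LMPP libraries had 1.63 and 1.14 TPM in batch 2 and 0.13 and 0.27 TPM in batch 1. CLP libraries had 2.81 and 0.55 TPM in batch 2 and 0.64 and 0.46 TPM in batch 1. GMP libraries had 3.33 and 3.75 TPM in batch 2 and 0.91 and 0.84 TPM in batch 1. The types overlapped over both batches, while within each batch both GMP libraries were above both LMPP and both CLP libraries. The limma difference was -0.79 ± 0.29 for LMPP minus GMP (adjusted p = 0.0609) and -0.59 ± 0.29 for CLP minus GMP (adjusted p = 0.167). After median-ratio scaling the LMPP minus GMP difference was -0.92 (adjusted p = 0.0276), and after quantile normalization it was -1.27 (adjusted p = 0.00199). With only LMPP and GMP in the fit it was -0.79 (limma adjusted p = 0.0158). This call thus depends on the scaling and on the types fitted, and Il1rl1 passed the filter only through GMP.

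The gene next to Il1rl1 had the opposite pattern. Il18r1, the interleukin 18 receptor chain, begins 137 bases after Il1rl1 ends, with means of 8.57 ± 1.29 TPM (LMPP), 8.34 ± 3.94 TPM (CLP) and 0.133 ± 0.116 TPM (GMP) (SD, n = 4 each). It rose by 3.07 ± 0.30 on the log2 scale in LMPP against GMP (limma adjusted p = 3.97e-05). On chromosome 19, Ms4a3 lies 5777 bases from Ms4a2, and both had their highest mean in GMP. Ms4a3, a membrane protein gene of granulocyte progenitors, averaged 14.2 ± 10.3 TPM (LMPP), 12.2 ± 22.5 TPM (CLP) and 574 ± 226 TPM (GMP). The sources used here do not say if strand was used in counting, so reads of overlapping genes on opposite strands cannot be told apart. Among the 10 genes, Cpa3 and Mcpt8 each overlap a microRNA gene (Mir7007 and Mir6949) and the other 8 overlap none.

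Hdc encodes histidine decarboxylase, the enzyme that makes histamine (chromosome 2, 126593667 to 126619299, minus strand, up to 12 exons), and its GMP libraries varied little. LMPP libraries had 14.7 and 1.59 TPM in batch 2 and 1.84 and 0.93 TPM in batch 1. CLP libraries had 10.8 and 1.52 TPM in batch 2 and 0.24 and 0.04 TPM in batch 1. GMP libraries had 85.0 and 69.7 TPM in batch 2 and 71.0 and 65.4 TPM in batch 1. Every GMP library lay above every other library, and the highest values outside GMP were those of the haemoglobin-rich pair. Hdc was the 1 gene of the 10 whose GMP libraries overlapped between batches. LMPP averaged 4.76 ± 6.62, CLP 3.14 ± 5.13 and GMP 72.8 ± 8.51 TPM (SD, n = 4 each). Hdc fell by 4.25 ± 0.60 in LMPP against GMP (limma adjusted p = 0.00041) and by 4.88 ± 0.60 in CLP against GMP (adjusted p = 0.000154). Without the haemoglobin-rich pair the limma differences were -4.85 (adjusted p = 7.08e-06) and -5.56 (adjusted p = 1.09e-06). Within batch 2 alone they were -3.61 (adjusted p = 0.0823) and -3.84 (adjusted p = 0.0639), which did not pass. Slc27a2, which lies 5424 bases from Hdc, was listed near 0 in GMP, with 2.49 ± 1.37 TPM (LMPP), 4.16 ± 3.74 TPM (CLP) and 0.035 ± 0.0436 TPM (GMP).

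Cpa3 encodes carboxypeptidase A3, a granule protease of mast cells and basophils (chromosome 3, 20215620 to 20242181, minus strand, up to 11 exons). LMPP libraries had 10.9 and 9.32 TPM in batch 2 and 12.1 and 6.2 TPM in batch 1. CLP libraries had 21.9 and 3.88 TPM in batch 2 and 3.23 and 3.67 TPM in batch 1. GMP libraries had 167 and 131 TPM in batch 2 and 51.4 and 61.1 TPM in batch 1. The GMP libraries lay above all others in both batches, and the single high CLP value was that of batch 2 replicate 1. LMPP averaged 9.63 ± 2.55, CLP 8.17 ± 9.15 and GMP 103 ± 55.6 TPM (SD, n = 4 each). Cpa3 fell by 3.15 ± 0.41 in LMPP against GMP (limma adjusted p = 0.000252) and by 3.75 ± 0.41 in CLP against GMP (adjusted p = 7.27e-05). Of the 9 genes tested, Cpa3 was the 1 still called in both comparisons within batch 2 alone.

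The basophil proteases reached 1 TPM in libraries of all 3 types. Mcpt8, the basophil protease of mice (chromosome 14, 56082166 to 56085273, minus strand, up to 5 exons), had 34.8 and 16.7 TPM in LMPP of batch 2 and 21.8 and 14.9 TPM in LMPP of batch 1. CLP libraries had 68.1 and 0.22 TPM in batch 2 and 4.51 and 2.95 TPM in batch 1. GMP libraries had 77.9 and 73.4 TPM in batch 2 and 27.1 and 32.9 TPM in batch 1. Of the CLP libraries, 3 lay below every LMPP library, and CLP batch 2 replicate 1 lay above them all and within the range of GMP. LMPP averaged 22.1 ± 8.98, CLP 18.9 ± 32.8 and GMP 52.8 ± 26.6 TPM (SD, n = 4 each). The limma difference was 1.74 ± 0.87 for LMPP minus CLP (adjusted p = 0.224) and -1.15 ± 0.87 for LMPP minus GMP (adjusted p = 0.346), neither of which passed. With only LMPP and GMP in the fit, the same -1.15 had a limma adjusted p of 0.0073 and passed. Without CLP batch 2 replicate 1 the LMPP minus CLP difference was 2.85 (adjusted p = 0.0102), and Mcpt8 was then called higher in LMPP. Mcpt8 fell by 2.89 ± 0.87 in CLP against GMP (limma adjusted p = 0.0307), but that call was lost when either CLP library of batch 1 or any GMP library was left out, with adjusted p between 0.0539 and 0.0765. The difference also did not pass with only CLP and GMP in the fit (limma adjusted p = 0.0745), with no filter on low values (0.0828) or in batch 2 only (0.291). Without the haemoglobin-rich pair it was -4.03 (adjusted p = 0.000596).

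Prss34, another basophil protease of mice (chromosome 17, 25298394 to 25300165, plus strand, 5 exons), had 37.1 and 20.0 TPM in LMPP of batch 2 and 10.7 and 3.32 TPM in LMPP of batch 1. CLP libraries had 81.3 and 1.93 TPM in batch 2 and 6.13 and 3.95 TPM in batch 1. GMP libraries had 57.4 and 57.6 TPM in batch 2 and 7.96 and 18.4 TPM in batch 1. Its highest value of all 12 libraries was in CLP batch 2 replicate 1, and the types overlapped. LMPP averaged 17.8 ± 14.6, CLP 23.3 ± 38.7 and GMP 35.3 ± 25.9 TPM (SD, n = 4 each). No comparison between types passed for Prss34, with limma adjusted p from 0.172 in CLP against GMP to 0.678 in LMPP against CLP. With only LMPP and GMP in the fit, the LMPP minus GMP difference of -0.97 passed (limma adjusted p = 0.0492). Without CLP batch 2 replicate 1 the CLP minus GMP difference was -2.35 (adjusted p = 0.0191), which passed.

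Gzmb encodes granzyme B, a protease of cytotoxic lymphocytes that mouse mast cells can also hold (chromosome 14, 56258838 to 56262260, minus strand, 5 exons). LMPP libraries had 0.31 and 0.00 TPM in batch 2 and 0.00 and 0.05 TPM in batch 1. CLP libraries had 1.61 and 0 TPM in batch 2 and 0.06 and 0 TPM in batch 1. GMP libraries had 2.86 and 1.63 TPM in batch 2 and 0.57 and 0.77 TPM in batch 1. All GMP libraries lay above all LMPP libraries, and CLP batch 2 replicate 1 overlapped GMP. In a limma fit without the filter on low values Gzmb fell by 1.09 in LMPP against GMP (adjusted p = 0.0281), and the CLP minus GMP difference of -0.84 did not pass (adjusted p = 0.0918). Perforin (Prf1), which acts with granzymes in cytotoxic lymphocytes, did not exceed 0.2 TPM in any library.

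Mcpt8 and Gzmb lie in one cluster of 15 protease genes that spans 320.8 kb of chromosome 14 in mm10. Of the 15, 4 reached 1 TPM in any library (Mcpt8, Ctsg, Gzmb and Gzmc) and 9 were listed at 0 in all. Ctsg, cathepsin G of neutrophil primary granules, starts 17.3 kb from the start of Mcpt8 and averaged 139 ± 36.5 TPM (LMPP), 53.6 ± 88.6 TPM (CLP) and 2109 ± 476 TPM (GMP) (SD, n = 4 each). It fell by 6.75 ± 0.84 in CLP against GMP (limma adjusted p = 0.000157). Gzmb starts 177.0 kb from Mcpt8, and no gene between Ctsg and Gzmb exceeded 1.15 TPM. Genes of this cluster are close copies of each other, and RSEM shares reads between similar transcripts, so small values among them are uncertain. Of the proteases of mature mast cells, Mcpt4 reached at most 0.08 TPM, Tpsb2 0.09 TPM and Cma1 0.2 TPM in any library. These proteases were thus at or near 0 in GMP too, where Cpa3 and Ms4a2 were high.

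**Figure D3:**
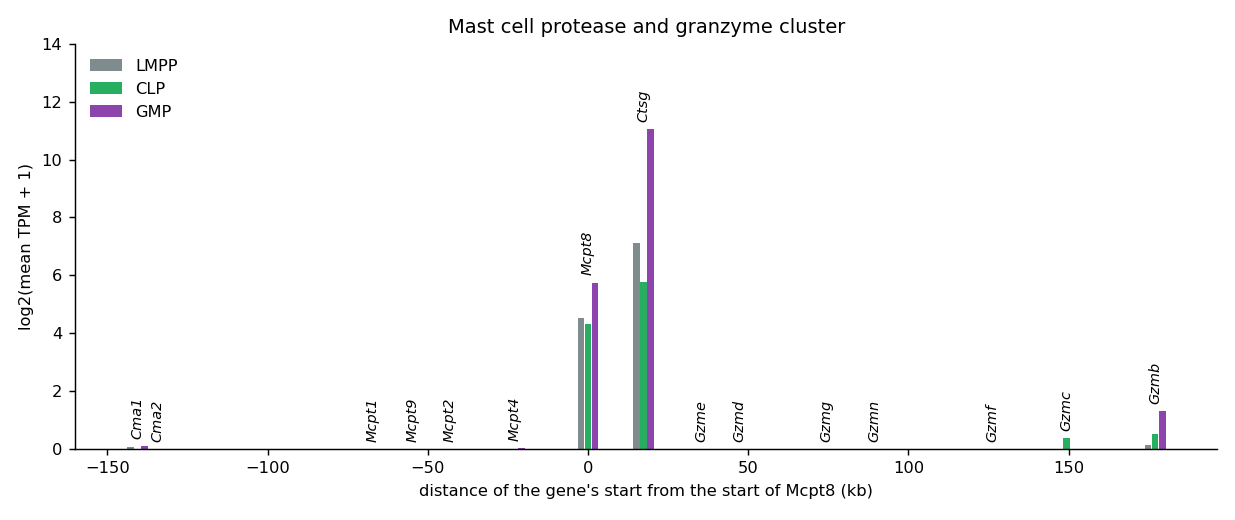
Mean level, log2(mean TPM + 1), of the 15 genes of the protease cluster in LMPP, CLP and GMP, against the distance of each gene's start from the start of Mcpt8 in kb. Bars rise visibly at Mcpt8 and Ctsg, with a low signal at Gzmb, and 9 genes have none.

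The eosinophil granule genes varied mainly by batch and library. Prg2 encodes major basic protein (chromosome 2, 84980461 to 84983632, plus strand, 6 exons). LMPP libraries had 986 and 98.3 TPM in batch 2 and 12.6 and 0.88 TPM in batch 1. CLP libraries had 538 and 64.9 TPM in batch 2 and 0.77 and 2.12 TPM in batch 1. GMP libraries had 684 and 529.9 TPM in batch 2 and 83.6 and 87.6 TPM in batch 1. Batch 2 lay above batch 1 without overlap in each type, and the highest value of all was in LMPP batch 2 replicate 1, one of the haemoglobin-rich pair. LMPP averaged 274 ± 476, CLP 151 ± 259 and GMP 346 ± 308 TPM (SD, n = 4 each). Prg2 fell by 3.44 ± 0.96 in CLP against GMP (limma adjusted p = 0.0211), and the LMPP minus GMP difference of -2.52 ± 0.96 did not pass (adjusted p = 0.0665). With only LMPP and GMP in the fit, the same -2.52 passed (limma adjusted p = 0.0454). The CLP call was lost without CLP batch 1 replicate 1, CLP batch 2 replicate 2 or either GMP library of batch 1, with adjusted p between 0.0552 and 0.0654. It was also lost with no filter on low values (limma adjusted p = 0.0618) and with no batch term (0.263). In batch 1 only the limma differences were -5.20 for CLP minus GMP (adjusted p = 0.00483) and -4.10 for LMPP minus GMP (adjusted p = 0.0117). In batch 2 only they were -1.68 (adjusted p = 0.433) and -0.95 (adjusted p = 0.675), and neither passed. Without the haemoglobin-rich pair both differences passed, at -4.37 for CLP minus GMP (adjusted p = 0.000926) and -3.43 for LMPP minus GMP (adjusted p = 0.00362).

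Epx encodes eosinophil peroxidase (chromosome 11, 87864000 to 87875536, minus strand, up to 13 exons). LMPP libraries had 32.8 and 2.45 TPM in batch 2 and 0.58 and 0.00 TPM in batch 1. CLP libraries had 15.7 and 1.45 TPM in batch 2 and were listed at 0 in both libraries of batch 1. GMP libraries had 16.8 and 9.27 TPM in batch 2 and 1.38 and 2.39 TPM in batch 1. The types overlapped, and the haemoglobin-rich libraries again held the highest value of LMPP and of CLP. No comparison between types passed for Epx, with limma differences of -0.75 ± 0.67 for LMPP minus GMP (adjusted p = 0.429) and -1.29 ± 0.67 for CLP minus GMP (adjusted p = 0.186). Without the haemoglobin-rich pair these were -1.52 (adjusted p = 0.00835) and -1.91 (adjusted p = 0.00275), and both passed.

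Other eosinophil genes were also read per library, beside Prg2. Prg3, a second major basic protein gene that lies 4583 bases from Prg2, came to 3.53% and 0.824% of the Prg2 level in LMPP of batch 2 and 12.1% and 9.09% in LMPP of batch 1. It came to between 0% and 4.25% in CLP and to between 3.53% and 10.5% in GMP, so the types overlapped. Ear1, a ribonuclease gene of eosinophil granules, had 291 and 139 TPM in the haemoglobin-rich LMPP and CLP libraries, and 1.51 to 6.51 TPM in GMP. Ear1 came to 29.5% and 41.2% of the Prg2 level in LMPP of batch 2 and to 51.1% and 0% in LMPP of batch 1, where the last library had Prg2 at 0.88 TPM. It came to 25.9% and 5.05% in CLP of batch 2, was listed at 0 in CLP of batch 1, and came to between 0.833% and 5.32% in GMP. Ear2 came to between 11.4% and 23.4% of the Prg2 level in LMPP, to 17.6% and 12.6% in CLP of batch 2 and 0% in CLP of batch 1, and to between 0.453% and 5.73% in GMP. The Ear2 share was thus higher in every LMPP library than in any GMP library, inside and outside the haemoglobin-rich pair. The same held for both CLP libraries of batch 2. In LMPP batch 1 replicate 2 the share rests on 0.12 TPM of Ear2 beside 0.88 TPM of Prg2, both near 0. The Ear genes are near copies, so their single values are uncertain. Ccr3, the eotaxin receptor of mature eosinophils, had 1.85 and 4.30 TPM in LMPP of batch 2, but 0.05 and 0.02 TPM in LMPP of batch 1. CLP libraries had 0.96 TPM in batch 2 replicate 1 and at most 0.02 TPM otherwise, and GMP did not exceed 0.04 TPM. The eosinophil surface genes Siglecf and Il5ra went the other way, with means of 2.25 and 0.11 TPM in LMPP and 7.42 and 0.35 TPM in GMP. Of the 5 other eosinophil granule genes, 4 were tested. Prg3, which reached 1 TPM in 3 libraries outside GMP and so passed the filter only through GMP, differed by -3.17 ± 0.85 in CLP against GMP (limma adjusted p = 0.0174). LMPP against GMP limma called 0, with 1 at an unadjusted p under 0.05 (Prg3, -2.18), beside 7.62% of all genes called lower and 21.3% higher. LMPP against CLP it called 0, with 0 at that level, beside 2.8% called lower and 7.23% higher. Without the haemoglobin-rich pair Prg3 was at -3.15 in LMPP against GMP (adjusted p = 0.00135). Batch 2 against batch 1, Ear1, Ear2 and Ear6 were called higher in batch 2, by 3.21 to 3.62, beside 18.5% of all genes. Without the pair Ear1 (2.11, adjusted p = 0.0419) and Ear2 (2.26, adjusted p = 0.0268) were called and Ear6 was not (1.97, adjusted p = 0.0583). In GMP alone Ear2 had 3.1 and 4.54 TPM in batch 2 and 0.72 and 5.02 TPM in batch 1, which overlap. The median difference of those 4 genes was 0.21 for CLP minus GMP and 1.37 for LMPP minus GMP, beside 0.09 and 0.24 for all genes.

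**Figure D4:**
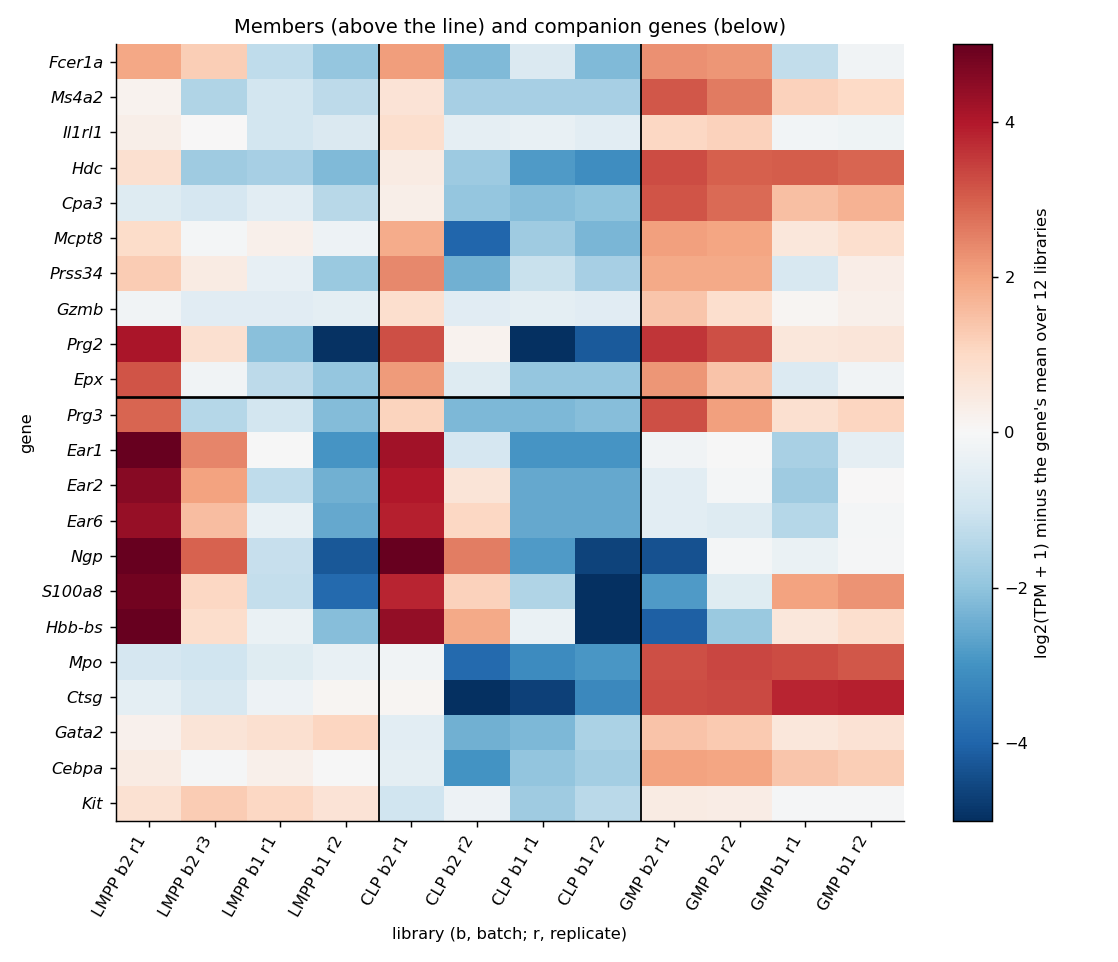
Each cell is log2(TPM + 1) in 1 library minus the gene's mean over the 12 libraries, for the 10 genes (above the line) and 12 companion genes (below it), with LMPP, CLP and GMP from left to right and batch 2 left of batch 1. Ear1, Ngp and Hbb-bs peak in LMPP and CLP batch 2 replicate 1, and Mpo and Ctsg in GMP.

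Batch was examined as a comparison after these values were seen. Batch 2 against batch 1, with cell type in the model, 4 of the 9 genes tested were called higher in batch 2 and 0 lower, all 9 differences were positive, and 8 had an unadjusted p under 0.05. Over all genes 18.5% were called higher in batch 2 and 6.02% lower. Prg2 rose by 5.03 ± 0.78 (limma adjusted p = 0.00112), Epx by 2.68 ± 0.55 (adjusted p = 0.00506), Fcer1a by 2.52 ± 0.62 (adjusted p = 0.012) and Il1rl1 by 0.97 ± 0.24 (adjusted p = 0.0125). Without the haemoglobin-rich pair, Prg2 (3.80, adjusted p = 0.00188) and Epx (1.75, adjusted p = 0.00385) remained called, and Fcer1a (1.87, adjusted p = 0.0598) and Il1rl1 (0.79, adjusted p = 0.0572) did not. The median difference of all genes was 0.17, and 0.00 after median-ratio scaling, under which the same 4 genes were called.

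Of the 12 mature neutrophil genes, 6 were called higher in batch 2 in the same fit, beside 18.5% of all genes. Without the haemoglobin-rich pair 1 was called higher. Calls either way over all genes were 2458 without the pair and 3123 with it. Within GMP, 9 of the 10 genes lay wholly higher in batch 2, Hdc being the exception. Over all genes tested, which do not include Gzmb, 48.5% did so. The summed haemoglobin level of the GMP libraries ran the other way, at 42.6 and 181 TPM in batch 2 and 1121 and 1273 TPM in batch 1. Their neutrophil genes summed to 63.6 and 342 TPM in batch 2 and 1255 and 1483 TPM in batch 1. Within GMP limma called 0 of the 9 genes higher in batch 2, with 5 at an unadjusted p under 0.05, beside 6.16% of all genes called. Within LMPP, 5 of the 10 lay wholly higher in batch 2 (Fcer1a, Il1rl1, Prss34, Prg2 and Epx), beside 33.0% of all genes. In LMPP Prg2 was called (5.95, limma adjusted p = 0.0237), 1 gene of 9 beside 2.19% of all genes. Within CLP, 4 of the 10 lay wholly higher in batch 2 (Hdc, Cpa3, Prg2 and Epx), beside 37.3% of all genes. In CLP Prg2 was called (6.32, limma adjusted p = 0.00337), 1 gene of 9 beside 21.3% of all genes.

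The differences between types were also read within each batch. LMPP against GMP, 8 of the 10 genes lay wholly lower in LMPP within batch 2 (all but Prg2 and Epx) and 9 within batch 1 (all but Prss34). Over all genes tested 25.7% did so in batch 2 and 18.8% in batch 1. CLP against GMP, 7 lay wholly lower in CLP within batch 2 and 9 within batch 1, beside 29.5% and 27.1% of all genes. Each of these counts against GMP includes Ms4a2 and Il1rl1, which passed the filter only through GMP. Each also includes Gzmb, which is not among the genes tested. LMPP against CLP, all 10 overlapped within batch 2, where 32.3% of all genes lay wholly higher and 22.5% wholly lower, and within batch 1 Ms4a2, Hdc, Cpa3 and Mcpt8 lay wholly higher in LMPP, beside 39.9% of all genes, and Il1rl1 wholly lower, beside 16.5%. A test of the interaction of cell type with batch called 0 of the 9 genes, and 0 had an unadjusted p under 0.05, in each comparison. Over all genes limma called 8.58% for LMPP against CLP, 0.0157% for LMPP against GMP and 5.48% for CLP against GMP.

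Over the 12 libraries, which share types and batches, the 9 tested genes correlated unevenly, as a description with no test of groupings. Ms4a2, Hdc and Cpa3 correlated at r = 0.941 to 0.969 with each other, Fcer1a and Prss34 at 0.96, and Prg2 and Epx at 0.936. Other pairs were nearly as close, with Il1rl1 and Fcer1a at 0.9, Fcer1a and Epx at 0.886 and Mcpt8 and Prss34 at 0.871. The lowest correlation was 0.568, between Cpa3 and Epx. Outside the 10, the genes most like the mean profile of these 9 were Ms4a6d (r = 0.967), Gpr141 (0.957), G6pdx (0.953), Aldh9a1 (0.953) and Prg3 (0.953), followed by Xdh, Emilin2, Dtwd1, Adgre1 and Clec7a (0.937 to 0.951). Ms4a6d is the neighbour of Ms4a2 on its other side, 10674 bases away, and averaged 1.09 ± 1.24 TPM (LMPP), 0.733 ± 1.43 TPM (CLP) and 3.57 ± 2.02 TPM (GMP). For single genes, the nearest were Ly6c1 for Hdc (r = 0.99), Slc7a8 for Cpa3 (0.984), Csrp3 for Ms4a2 (0.979) and Manba for Mcpt8 (0.961). Wdr83 was nearest to Fcer1a (0.931), Uba1 to Il1rl1 (0.938), Dtwd1 to Prss34 (0.922), Slfn2 to Prg2 (0.938) and Vta1 to Epx (0.925).

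The gamma chain of the IgE receptor and the genes of its signalling were called in both directions against GMP. Fcer1g, the gamma chain shared with other Fc receptors, averaged 103 ± 58.5 TPM (LMPP), 122 ± 70.1 TPM (CLP) and 301 ± 25.2 TPM (GMP) (SD, n = 4 each), and fell by 1.67 ± 0.59 in LMPP against GMP (limma adjusted p = 0.0496). All 13 listed genes of the gamma chain and its signalling were tested. LMPP against GMP, 6 were called higher in LMPP and 1 lower, with a median difference of 0.63, beside 21.3% and 7.62% of all genes. CLP against GMP, 6 were called higher in CLP and 1 lower, with a median of 0.57, beside 13.9% and 9.96% of all genes. The shares called lower against GMP were thus near those of all genes. Without the haemoglobin-rich pair 7 were higher and 2 lower in CLP against GMP. LMPP against CLP, 1 was called higher and 1 lower, beside 7.23% and 2.8%, and without the pair 1 and 0. The kinase gene Fyn rose by 2.44 ± 0.26 in CLP against GMP (adjusted p = 5.81e-05) and Plcg1, a phospholipase, by 1.88 ± 0.23 (adjusted p = 0.000146). Lat, the adaptor that T cells use too, rose by 2.12 ± 0.40 in LMPP against GMP (adjusted p = 0.00232). These signalling genes serve lymphocytes as well as mast cells.

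Of 19 listed cytokine and chemokine receptors of these lineages, 13 were tested. LMPP against CLP, 2 were called higher in LMPP and 0 lower, beside 7.23% and 2.8% of all genes. LMPP against GMP, 3 were called higher and 3 lower, beside 21.3% and 7.62%, so the share called higher was near that of all genes. CLP against GMP, 1 was called higher and 6 lower, beside 13.9% and 9.96%. Without the haemoglobin-rich pair 3 were higher and 4 lower in LMPP against GMP, and 1 higher and 7 lower in CLP against GMP. Kit, the stem cell factor receptor that mast cells keep and that the gates used, was at 108 ± 20.3 TPM (LMPP), 27.6 ± 13.7 TPM (CLP) and 62.6 ± 10.9 TPM (GMP). Siglecf, a lectin of mature eosinophils, fell by 2.45 ± 0.37 in CLP against GMP (limma adjusted p = 0.000602). Il5ra, the eosinophil receptor of interleukin 5, did not exceed 0.65 TPM in any library.

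Of 13 genes for granule storage, histamine handling and lipid mediators, 11 were tested. CLP against GMP, 4 were called lower in CLP and 1 higher, beside 9.96% and 13.9% of all genes. Without the haemoglobin-rich pair 5 were lower and 1 higher. LMPP against GMP, 1 was called lower and 4 higher, beside 7.62% and 21.3%, and without the haemoglobin-rich pair 3 lower and 3 higher. LMPP against CLP, 3 were called higher and 0 lower, beside 7.23% and 2.8%. Srgn, the proteoglycan core on which granule proteases are packed, fell by 1.73 ± 0.09 in CLP against GMP (limma adjusted p = 1.82e-07). Hnmt, which breaks histamine down, fell by 3.24 ± 0.40 (adjusted p = 0.000146) and Ptgs1, a prostaglandin enzyme, by 3.31 ± 0.48 (adjusted p = 0.000468) in the same comparison. Alox15 is a lipoxygenase of mouse eosinophils and macrophages. LMPP libraries had 33.7 and 13.5 TPM in batch 2 and 0.92 and 1.31 TPM in batch 1. CLP libraries had 23.5 and 4.62 TPM in batch 2 and 0.16 and 0.09 TPM in batch 1, so both types were higher in batch 2. GMP libraries had 0.2 to 1.13 TPM. Alox15 differed by 2.01 ± 0.63 in LMPP against GMP (limma adjusted p = 0.0318), and was also called without the haemoglobin-rich pair (adjusted p = 0.0339). Alox15 reached 1 TPM in 3 libraries outside LMPP and so passed the filter only through LMPP.

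Of 22 transcription factor genes of these lineages, 21 were tested. LMPP against CLP, 6 were called higher in LMPP and 1 lower, beside 7.23% and 2.8% of all genes. LMPP against GMP, 5 were called higher and 6 lower, beside 21.3% and 7.62%. CLP against GMP, 3 were called higher and 12 lower, beside 13.9% and 9.96%. The shares called higher against GMP were thus near those of all genes. Without the haemoglobin-rich pair the counts were 6 higher and 0 lower in LMPP against CLP. They were 5 and 7 in LMPP against GMP, and 3 and 13 in CLP against GMP. Gata2, which mast cell and basophil development requires, averaged 10.5 ± 2.80 TPM (LMPP), 1.49 ± 1.61 TPM (CLP) and 13.4 ± 4.17 TPM (GMP), and fell by 2.68 ± 0.38 in CLP against GMP (limma adjusted p = 0.000398). Cebpa, a factor of granulocyte commitment, fell by 3.42 ± 0.41 (adjusted p = 0.000128) and Cebpe, which acts in granule maturation, by 3.53 ± 0.58 (adjusted p = 0.00103) in CLP against GMP. Lmo2 rose by 2.71 ± 0.25 in LMPP against CLP (adjusted p = 0.000122). In LMPP, where Hdc, Cpa3 and Ms4a2 were low, the Gata2 difference from GMP was -0.31 ± 0.38 (adjusted p = 0.567).

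Of 10 cytokine genes of these lineages, 4 were tested, with 3 called higher in LMPP against GMP (beside 21.3% of all genes), 2 called higher in LMPP against CLP (beside 7.23%) and 0 called by limma in CLP against GMP, where 2 had an unadjusted p under 0.05. The chemokine genes Ccl3 and Ccl4 rose by 3.65 ± 0.42 (limma adjusted p = 0.000109) and 3.22 ± 0.42 (adjusted p = 0.000252) in LMPP against GMP, and Tnf by 1.11 ± 0.23 (adjusted p = 0.00372). Ccl4 reached 1 TPM in 2 libraries outside LMPP and so passed the filter only through LMPP. Il4 did not exceed 0.55 TPM and Il13 was listed at 0 in every library.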

How the data were processed

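The authors deposited TPM values per Ensembl gene, which sum to a fixed total in each library. Per the submitters' processing notes, Bowtie2 2.2.0, RSEM 1.2.12, edgeR 3.10.0 and mm10 were used; neither their order nor their settings are stated. TPM keeps no depth, so no counting interval can be given and a 0 is described as listed at 0. Another 17 columns that no sample title matches were not used. Groups and batches came from the labels. Values were fitted as log2(TPM + 1), which understates changes of low genes, for all 12 libraries in limma 3.58.1 (R 4.3.3; cell type plus batch, 8 residual degrees of freedom, trend-moderated variance), with Benjamini-Hochberg adjustment over 12718 genes. The interaction fit had 6 residual degrees of freedom. Code was tested on simulated data. Symbols came from GENCODE, with 37607 IDs matched.

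The 10 genes and all gene lists were chosen with earlier results of these data known. All 10 are named, with up to 4 called genes of a list by size of difference, list members that mark mature cells, and the genes most correlated with the 10. Adjacent genes, the genes of the eosinophil ratios, the batch comparison and the gene-list counts without the haemoglobin-rich pair were chosen after values were seen. Scaling, pseudocount, filter, batch handling and left-out libraries were varied.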

Additional observations from a re-analysis of the deposited data

Results flagged for a closer look

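Among the 30 combinations of gene and cell type (10 genes in 3 types), 14 were flagged on the TPM scale. In these the highest of 4 libraries stood farther from the rest than Dixon's 95% limit allows. That limit assumes normal values, and the genes share libraries, so the 14 are not set against a chance rate. On the log2(TPM + 1) scale used for the tests 4 of these passed the limit. All 14 were in the haemoglobin-rich pair. CLP batch 2 replicate 1 held 10 of them, 1 for each gene. It had Ms4a2 at 4.1 TPM, Cpa3 at 21.89 TPM, Il1rl1 at 2.81 TPM and Gzmb at 1.61 TPM, the 4 that passed on both scales. It also had Fcer1a at 20.12 TPM, Hdc at 10.78 TPM, Mcpt8 at 68.1 TPM, Prss34 at 81.29 TPM, Prg2 at 537.51 TPM and Epx at 15.71 TPM. LMPP batch 2 replicate 1 held the other 4, with Hdc at 14.67 TPM, Gzmb at 0.31 TPM, Prg2 at 985.87 TPM and Epx at 32.82 TPM. Haemoglobin genes summed to 28085 TPM in that LMPP library and 13392 TPM in that CLP library, and the part of that RNA in these values was not tested.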

How the results depend on the processing

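Calls over all genes tested are given in brackets, since they moved with the settings too. LMPP against CLP, 0 of the 9 genes were called (1276). Mcpt8, higher in LMPP, was the 1 called in batch 1 only (1192), without CLP of batch 2 (897) and without the haemoglobin-rich pair (913). Leaving out single libraries gave 0 to 1 (660 to 1486). LMPP against GMP, 3 were called (3676), against 5 in batch 1 only (3613), 1 in batch 2 only (1126) and 7 without CLP of batch 2 (5304). Without the haemoglobin-rich pair 5 were called (3517). With only these types in the fit 8 were called, all tested but Epx (5183). CLP against GMP, 5 were called (3040), against 3 with no filter on low values (2618) and 1 in batch 2 only (1684). With single libraries left out 3 to 6 were called (2104 to 3109). Batch 2 against batch 1, 4 were called (3123), against 7 after rescaling without mitochondrial and ribosomal RNA (4061). Without the haemoglobin-rich pair 2 were called (2458), and with single libraries left out 4 to 8 (2254 to 3137). Alternatives for the batch comparison were chosen after seeing the data. The causes were not tested, except that single-batch fits hold fewer samples.

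Directions reversed for uncalled differences only. LMPP minus CLP, Ms4a2 was -0.0914 after quantile normalization, -0.18 in batch 2 only and -0.24 to 0.64 with single libraries left out. Fcer1a was -0.14 in batch 1 only, -0.0839 without CLP of batch 2 and -0.26 to 1.35 with single libraries left out. With single libraries left out, Prss34 ranged from -0.43 to 1.38 and Epx from -0.15 to 1.08. Mcpt8 in batch 2 minus batch 1 was -0.0193 without the haemoglobin-rich pair. Of 923 values of single genes under all alternatives, 847 kept their direction and their side of the threshold.

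Genes called over the whole table ranged from 212 to 1519 over the alternatives for LMPP against CLP (1276 as reported), 1126 to 5304 for LMPP against GMP (3676) and 1684 to 3262 for CLP against GMP (3040). The share of calls that were higher was 72.1%, 73.6%, 58.3% and, for batch 2, 75.5%; after median-ratio scaling these were 47.3%, 46.1%, 45.7% and 44.8%. Replicate numbers showed no pairing where both types had replicates 1 and 2 (correlations of deviations -0.063 to 0.026). LMPP of batch 2 has no replicate 2, so its pairing with other types was not tested. The haemoglobin-rich pair are both replicate 1 of batch 2. With a replicate block in place of the batch term 0, 3 and 5 of the genes were called and 212, 2214 and 2580 over all. Depth is unknown, which limits genes near 0.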
